A study of Mus musculus with 6 samples.

Results

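Cajal-Retzius neurons and subplate neurons are the earliest-born neurons of the cerebral cortex, and 10 genes that mark them were examined in the cortex of mouse embryos lacking Ybx1. Of the 17348 genes in the count table, 6 were taken as markers of the marginal zone, where Cajal-Retzius neurons lie (Reln, Trp73, Lhx1, Lhx5, Ndnf and Calb2), and 4 as markers of the subplate (Nr4a2, Cplx3, Nxph4 and Moxd1). The rule names the genes as known markers of these neurons and uses no measured value, although it was written with earlier results of these data known. The samples were 3 control (Ctrl) and 3 conditional knockout (cKO) bulk mRNA libraries of cortex at E18.5, just before birth. Whether each came from a separate embryo is not stated in the labels. The cKO embryos carried Nestin-Cre and were Ybx1 fl/fl (a line made on C57BL/6J), and the Ctrl libraries are labelled WT. The study describes its controls both as wild-type littermates and as Ybx1 fl/fl animals without Cre, so whether the Ctrl embryos carried the floxed allele is not settled by the labels. Nestin-Cre acts in neural progenitors and their progeny, and a neuron born before recombination would keep an intact gene. How completely the earliest-born neurons had lost Ybx1 cannot be read from whole-cortex RNA. In the paper's immunostaining of cKO cortex, Ybx1 protein was not yet lost at the earliest embryonic stage examined and was nearly absent at the later ones. The paper does not report that staining for these neurons separately.

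Cajal-Retzius neurons lie beneath the brain surface and secrete Reelin, an extracellular glycoprotein that binds the receptors Vldlr and Lrp8 (ApoER2) on migrating neurons, leads to phosphorylation of the adaptor Dab1 and sets the order of the cortical layers. Most of these neurons die in the first weeks after birth. Subplate neurons lie under the cortical plate, receive the first thalamic axons and form transient circuits, and a part of them persists as the deepest layer of the cortex. Both populations are small, so their markers are a minor share of the RNA of a whole cortex. In bulk samples, fewer cells of a type and less RNA per cell cannot be told apart.

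The libraries held 15091951 to 16885451 estimated counts. Ybx1, which encodes an RNA-binding cold shock protein, averaged 1089 ± 182 CPM (counts scaled to a common library total, with TMM factors) in Ctrl and 24.6 ± 0.519 in cKO (SD, n = 3 each), a log2 fold change of -5.47 (SE 0.16, edgeR adjusted p = 6.95e-07). All fold changes here are cKO relative to Ctrl, and adjusted p-values come from the edgeR quasi-likelihood test with Benjamini-Hochberg adjustment over the 13570 genes tested. The summed level of 4 Y-linked genes (Eif2s3y, Kdm5d, Ddx3y and Uty) was 215 to 295 CPM in the Ctrl libraries and 0.929 to 1.47 CPM in the cKO libraries, so the sex of the embryos and their genotype cannot be told apart in any difference given here. Ctrl replicate 2 stood apart from the other 5 libraries by transcript length. Its 1338 genes with the longest transcripts (at least 7050 bases) lay a median of 0.439 below their mean over all libraries on the log2 scale (a value of -0.439), against 0.0274 to 0.162 in the other libraries, and its 1338 genes with the shortest transcripts (at most 1549 bases) lay 0.389 above it, against -0.174 to -0.017. For the 9 marker genes that could be tested, and for some of the other listed genes, the value without it is given too.

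The tissue label held at the level of its defining markers. Neurod6, a transcription factor of cortical excitatory neurons, averaged 1032 ± 200 TPM (a level per transcript length, scaled to the same sum in each library) in Ctrl and 1017 ± 75.3 in cKO. All 8 excitatory markers listed were detected well enough to be tested.

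The promoters of 3 of the genes are shown because they stand for the different cases below: Reln, the most abundant of the 10, Trp73, whose short p73 isoforms start at an internal promoter, and Moxd1, which was higher in every cKO library. Each is the run of 250 bases upstream of a RefSeq start in GRCm38.p6, written 5′ to 3′ on the strand of the gene, and the capitals mark GGGCGG, the core of the GC box, with the motif searched on both strands.
Reln, chr5:22344706-22344955, minus strand: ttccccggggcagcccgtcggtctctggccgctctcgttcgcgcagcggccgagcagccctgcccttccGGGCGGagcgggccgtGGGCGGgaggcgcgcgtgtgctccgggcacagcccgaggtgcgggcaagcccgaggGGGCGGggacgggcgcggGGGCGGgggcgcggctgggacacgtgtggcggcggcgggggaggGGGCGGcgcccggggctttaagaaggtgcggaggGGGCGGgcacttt
Trp73, internal start, chr4:154097174-154097423, minus strand: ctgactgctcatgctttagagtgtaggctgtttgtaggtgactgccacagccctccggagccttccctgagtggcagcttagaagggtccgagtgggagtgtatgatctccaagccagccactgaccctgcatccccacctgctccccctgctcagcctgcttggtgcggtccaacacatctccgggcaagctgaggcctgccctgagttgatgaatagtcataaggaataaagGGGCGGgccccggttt
Moxd1, chr10:24223267-24223516, plus strand: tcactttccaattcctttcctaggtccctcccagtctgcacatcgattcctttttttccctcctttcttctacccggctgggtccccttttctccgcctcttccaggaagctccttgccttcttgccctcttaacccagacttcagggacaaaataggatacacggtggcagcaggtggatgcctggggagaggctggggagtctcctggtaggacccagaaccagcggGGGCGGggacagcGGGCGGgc
The Reln window held 37 CpG dinucleotides and 6 matches to GGGCGG, which placed its CpG count at the 97.8 percentile of 32851 mouse promoter windows of the same length, whose median was 6 CpGs. The internal Trp73 window held 6 CpGs and 1 match, and the Moxd1 window held 8 CpGs and 2 matches. The window at the outer Trp73 start, not printed here, held 31 CpGs (94.8 percentile) and no match. Of all promoter windows, 32.7% held this GC box core. The TATA box sequence TATAAA, found in 12.4% of all windows, was in none of the 3 windows printed above. Neither was AAAGGTCA, the monomer element bound by the nuclear receptor Nr4a2, found in 1.3%. The table of sequences matched 6 of the 10 genes. The others were Lhx5, Ndnf, Calb2 and Nxph4.

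In Ctrl, the levels of the 10 genes on the TPM scale spanned a wide range. Reln, at 66.9 ± 20.1 TPM (SD, n = 3), stood above all the others and at the 82.8 percentile of all genes. Next came Nxph4 at 22.2 ± 1.95 TPM, Calb2 at 22.2 ± 9.87, Nr4a2 at 14.6 ± 5.08, Ndnf at 8.97 ± 3.02 and Trp73 at 5.6 ± 0.635, and the ranges of neighbours in this run overlapped. Lhx5 followed at 2.97 ± 0.617 TPM, below every Trp73 value. Moxd1 at 0.797 ± 0.27 TPM and Lhx1 at 0.46 ± 0.0985 overlapped each other. Cplx3 was last, with 0.0533 TPM. In cKO, Reln remained first at 70.7 ± 8.7 TPM and Nxph4 second at 37.8 ± 2.63, and the only neighbours whose ranges overlapped were Nr4a2 at 16.3 ± 5.06 and Calb2 at 13.8 ± 4.14.

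**Figure D1:**
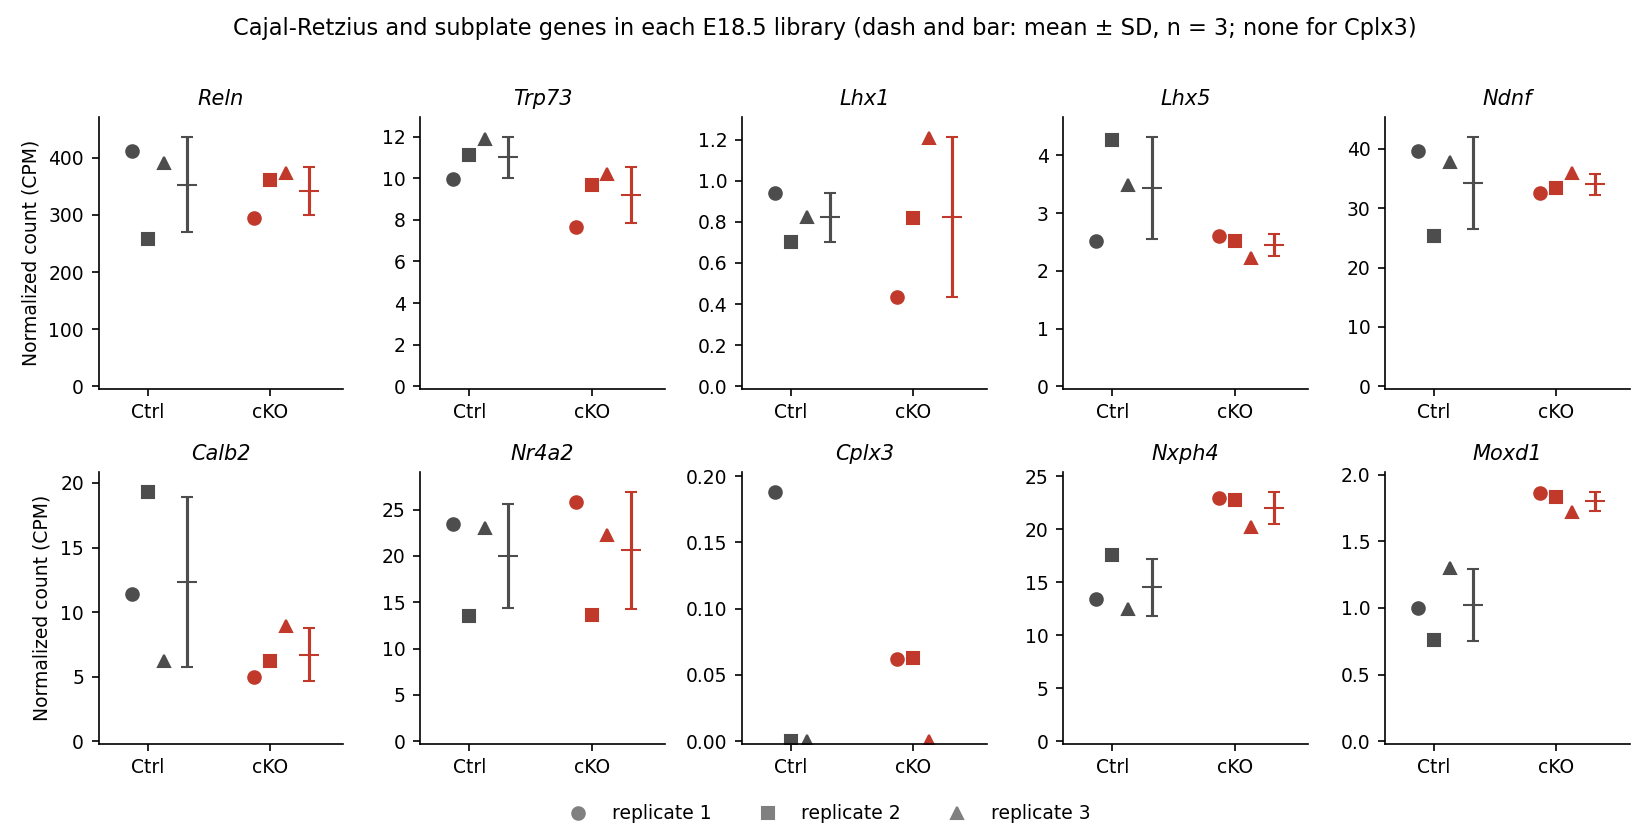
Normalized counts (CPM, linear axis of its own for each gene) of the 10 genes in the 3 Ctrl (grey) and 3 cKO (red) libraries. Symbols give the replicate number, and the dash and bar give mean ± SD (n = 3), left out for Cplx3, which had at most 3 counts in any library. The cKO points lie above all Ctrl points for Nxph4 (20.2 to 22.9 against 12.5 to 17.6) and Moxd1 (1.72 to 1.86 against 0.761 to 1.3), and the groups overlap for the other genes.

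Of the 10 genes, 9 passed the filter on low counts, all 6 marginal zone genes and 3 of the 4 subplate genes, and none had an adjusted p under 0.05, where 0.0737% of all genes tested did (10 genes, of which 3 were higher in cKO, 0.0221%, and 7 lower, 0.0516%). The 7 lower genes include the deleted gene Ybx1 and the 4 Y-linked genes, so this share is in large part the deletion itself and the sex of the embryos. DESeq2 gave an adjusted p for 7 of the 9, not for Lhx1 and Moxd1, and called 0 of the 7, against 99 of the 12254 genes it judged (0.808%). At an unadjusted p under 0.05, 3 of the 9 differed (Calb2 lower, Nxph4 and Moxd1 higher), against 6.62% of all genes (3.14% higher, 3.49% lower). The groups did not overlap for Nxph4 and Moxd1, against 14.3% of all genes, 7.35% being higher and 6.93% lower in cKO.

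Reln, Ndnf and Calb2, which encode the ligand and other proteins by which Cajal-Retzius neurons are recognized, overlapped between the groups. Reln, on chromosome 5 from 21884454 to 22344702 (GRCm38, minus strand), had 411, 258 and 391 CPM in Ctrl replicates 1 to 3 and 294, 361 and 373 CPM in cKO replicates 1 to 3. The lowest value was that of Ctrl replicate 2, and the groups overlapped. Its log2 fold change was -0.05 (SE 0.18, 95% interval -0.46 to 0.37, adjusted p = 0.969). Reln has one of the longest transcripts measured (11699 bases, 98.5 percentile of the genes tested), and in Ctrl replicate 2 it lay at -0.412 relative to its mean, near the median of the longest genes in that library. Without Ctrl replicate 2, its log2 fold change was -0.23 (adjusted p = 0.416).

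Ndnf, a secreted growth factor-like protein of Cajal-Retzius neurons and later of layer I interneurons, lies on chromosome 6 from 65671590 to 65712326 (plus strand). It had 39.6, 25.3 and 37.8 CPM in Ctrl and 32.6, 33.4 and 36 CPM in cKO. Ctrl replicate 2 was again the lowest, at -0.414 relative to the gene's mean, and the Ndnf transcript is also long (10101 bases). The cKO values lay within the Ctrl range. The fitted log2 difference was -0.01 (SE 0.17, interval -0.39 to 0.37, adjusted p = 0.993), and -0.19 without Ctrl replicate 2.

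Calb2 encodes calretinin, a calcium-binding protein of Cajal-Retzius neurons that is also made by cortical interneurons and thalamic neurons, and lies on chromosome 8 from 110137502 to 110168210 (minus strand). Its values were 11.4, 19.3 and 6.23 CPM in Ctrl and 4.95, 6.23 and 8.94 CPM in cKO. Ctrl replicate 2 was the highest, and Ctrl replicate 3 lay among the cKO libraries. The log2 fold change was -0.88 (SE 0.38, interval -1.74 to -0.02, unadjusted p = 0.0452, adjusted p = 0.732). The Calb2 transcript is short (1431 bases, 8.38 percentile), and the value depended on single libraries. Without Ctrl replicate 2 the log2 fold change was -0.40 (unadjusted p = 0.182, adjusted p = 0.611), without Ctrl replicate 3 it was -1.20 (unadjusted p = 0.00249, adjusted p = 0.195), and without cKO replicate 3 it was -1.14. It was below 0 in all 14 alternatives. With each gene's transcript length and base composition modelled, the value was -0.72 (length and GC correction).

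**Figure D2:**
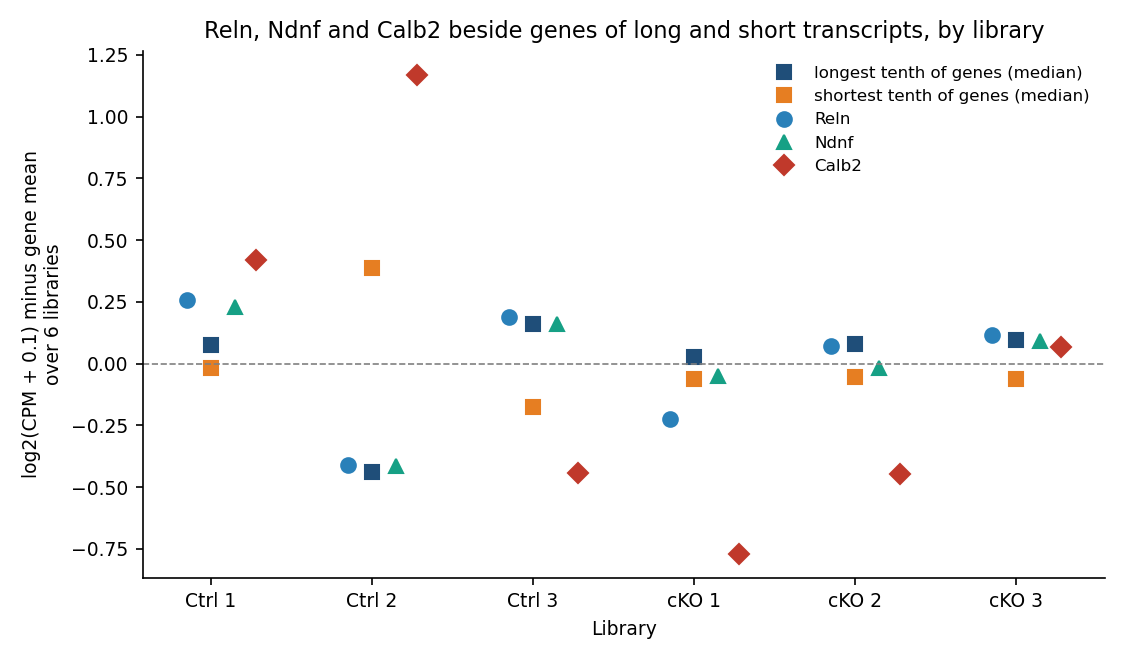
Deviation of Reln, Ndnf and Calb2 from their own mean over the 6 libraries (log2 scale), beside the median deviation of the 1338 genes with the longest and the 1338 with the shortest transcripts. Ctrl replicate 2 lies at -0.439 for the longest and 0.389 for the shortest genes, with Reln at -0.412, Ndnf at -0.414 and Calb2 at 1.17.

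The transcription factors of Cajal-Retzius neurons were expressed at low levels and overlapped between the groups. Trp73 (p73), a p53-family factor on which the survival of these neurons depends, lies on chromosome 4 from 154056253 to 154140208 (minus strand). It had 9.97, 11.1 and 11.9 CPM in Ctrl and 7.68, 9.69 and 10.2 CPM in cKO. One cKO library lay inside the Ctrl range and the others below it. The log2 fold change was -0.26 (SE 0.16, interval -0.63 to 0.12, adjusted p = 0.838), or -0.25 without Ctrl replicate 2, and it was below 0 in all 14 alternative analyses (-0.34 to -0.13). Of the 7 annotated Trp73 transcripts, 4 start within 10 bases of the internal start whose promoter is printed above, 43035 bases downstream of the outermost start, and gene-level counts do not part the long from the short isoforms. The antisense transcript Trp73os runs across that start from 154093479 to 154098353, and since the strand setting of the counting is not given in the sources used here, its reads cannot be told apart from those of Trp73. Antisense genes are annotated over Reln and Lhx5 too, and the same limit holds there. It holds as well for any other of the 10 genes that an antisense gene overlaps.

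Lhx5 and Lhx1 are LIM-homeodomain factors of Cajal-Retzius neurons and of the forebrain regions that produce them. Lhx5, on chromosome 5 from 120431699 to 120441223 (plus strand), had 2.51, 4.27 and 3.49 CPM in Ctrl and 2.6, 2.52 and 2.23 CPM in cKO. The lowest Ctrl library lay among the cKO libraries. The fitted log2 difference was -0.48 (SE 0.25, interval -1.04 to 0.07, unadjusted p = 0.0801, adjusted p = 0.795). Leaving out 1 library moved it from -0.67 without Ctrl replicate 1 (unadjusted p = 0.0233, adjusted p = 0.874) to -0.29 without Ctrl replicate 2, and it was below 0 in all 14 alternatives. Lhx1, on chromosome 11 from 84518284 to 84525535 (minus strand), had 15, 12 and 12 counts in Ctrl and 7, 13 and 19 in cKO, or 0.822 ± 0.119 and 0.822 ± 0.39 CPM. At these counts the interval of its log2 fold change ran from -0.89 to 0.89, and the fitted value was -0.00, or -0.11 without Ctrl replicate 2.

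The median log2 fold change of the 6 marginal zone genes was -0.15, against 0.00 for all 13570 genes, whose 5th and 95th percentiles were -0.36 and 0.37. All 6 fitted values were below 0, but those of Reln, Lhx1 and Ndnf turned positive under at least 1 other scaling or left-out library.

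Subplate markers had higher values in cKO for 2 of the 3 genes tested. Nxph4, a secreted neurexophilin of the family that binds α-neurexins, lies on chromosome 10 from 127525473 to 127534559 (minus strand). It had 13.4, 17.6 and 12.5 CPM in Ctrl and 22.9, 22.7 and 20.2 CPM in cKO, 14.5 ± 2.7 against 22 ± 1.49, a ratio of 1.52. Each cKO library was above each Ctrl library, and on the TPM scale the means were 22.2 ± 1.95 and 37.8 ± 2.63. The log2 fold change was 0.60 (SE 0.16, interval 0.24 to 0.95, unadjusted p = 0.00426, adjusted p = 0.444). The exact two-sided permutation test gave p = 0.1, the smallest that 3 against 3 libraries allow. Nxph4 passed the adjusted threshold in 3 of 14 alternatives, with a length and GC correction (0.72, adjusted p = 0.0142), with that correction and a replicate block together (0.72, adjusted p = 0.0254) and without Ctrl replicate 2 (0.76, adjusted p = 0.0165), where 1.12% of all genes passed with the first and 0.899% with the last. Over all 14 the adjusted p ranged from 0.0142 to 1.

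Moxd1, a monooxygenase related to dopamine β-hydroxylase, lies on chromosome 10 from 24223517 to 24302790 (plus strand). It had 16, 13 and 19 counts in Ctrl and 30, 29 and 27 in cKO, or 1, 0.761 and 1.3 CPM against 1.86, 1.83 and 1.72. The groups did not overlap, at 1.02 ± 0.271 and 1.8 ± 0.0695 CPM (ratio 1.76, exact p = 0.1). The log2 fold change was 0.83 (SE 0.27, interval 0.21 to 1.44, unadjusted p = 0.0142, adjusted p = 0.569), and 0.65 without Ctrl replicate 2. It was above 0 in all 14 alternatives and passed the adjusted threshold in none of the 13 that gave an adjusted p, DESeq2 giving none for it (unadjusted p = 0.0441).

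Nr4a2 (Nurr1), an orphan nuclear receptor of subplate neurons, the claustrum and midbrain dopamine neurons, lies on chromosome 2 from 57106830 to 57124003 (minus strand). Its values were 23.4, 13.5 and 23 CPM in Ctrl and 25.8, 13.6 and 22.3 CPM in cKO. Replicate 2 was the lowest in both groups, and the other libraries lay close together. Its log2 fold change was 0.05 (SE 0.27, interval -0.57 to 0.66, adjusted p = 0.983), and it turned to -0.17 without Ctrl replicate 2 (adjusted p = 0.788). Cplx3, a complexin that regulates transmitter release and marks the persistent subplate layer, had 3, 0 and 0 counts in Ctrl and 1, 1 and 0 in cKO. All values were at or under the floor of 3 counts (0.176 to 0.206 CPM), so no fold is given, and a difference was not detectable at this depth.

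**Figure D3:**
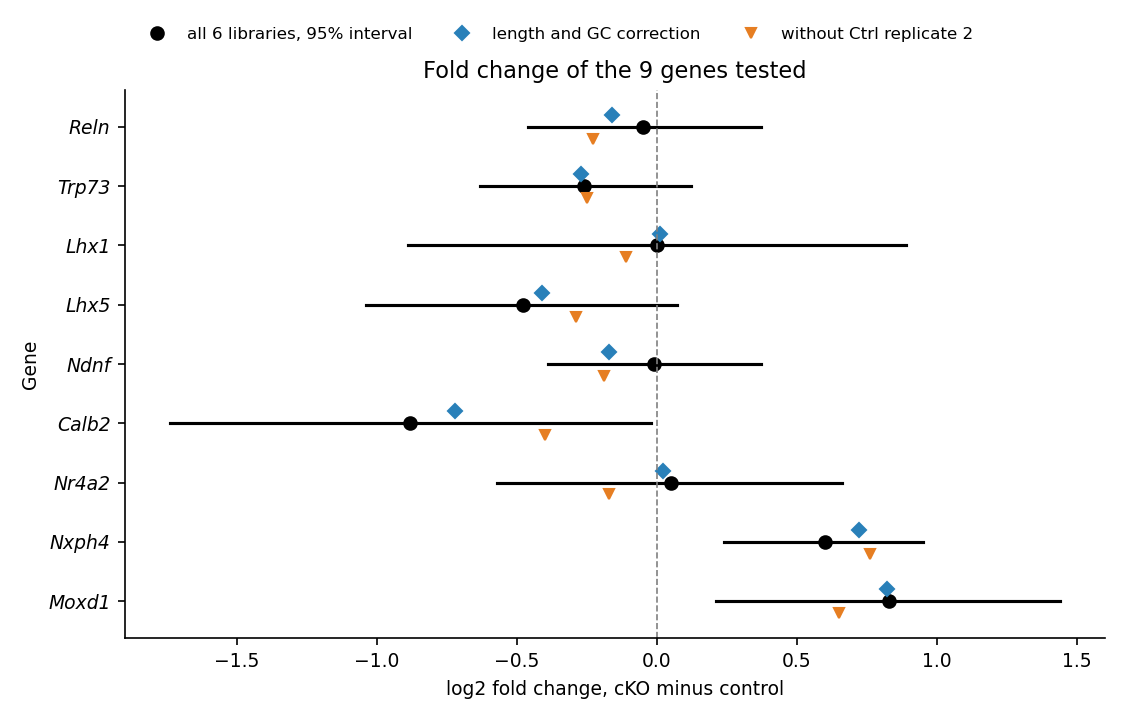
Log2 fold change (cKO relative to Ctrl) of the 9 genes tested, with 95% intervals from the edgeR fit. The intervals of Nxph4 (0.24 to 0.95) and Moxd1 (0.21 to 1.44) lie above 0 and that of Calb2 (-1.74 to -0.02) below it, before adjustment, and the other 6 include 0.

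Further markers of the same neurons were counted. Of 10 other Cajal-Retzius genes, all tested, none had an adjusted p under 0.05, 5 lay above 0 and 5 below, and the median was -0.01. Ebf2 and Ebf3, helix-loop-helix factors of these neurons, had log2 fold changes of 0.20 (adjusted p = 0.922) and 0.18 (adjusted p = 0.923), or 0.10 and 0.01 without Ctrl replicate 2, and Nhlh2 had -0.12 (adjusted p = 0.925). The ends of the list were Spock1, a proteoglycan, at 122, 108 and 124 CPM in Ctrl and 160, 148 and 146 in cKO (0.36, SE 0.11, adjusted p = 0.49), and Islr2, a membrane protein of growing axons, at 470, 528 and 413 against 340, 325 and 344 CPM (-0.49, SE 0.12, adjusted p = 0.39). Neither overlapped between groups. Islr2 passed the adjusted threshold with the length and GC correction (adjusted p = 0.0174). Both are made by many cortical neurons besides Cajal-Retzius cells.

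Of 12 other subplate genes, 11 were tested, none passed the adjusted threshold, 9 lay above 0 and the median was 0.19. Ccn2 (connective tissue growth factor), a secreted matricellular protein and a defining subplate marker, had 6.08, 6.27 and 4.86 CPM in Ctrl and 11.5, 7.3 and 7.92 CPM in cKO. Every cKO value was above every Ctrl value (0.63, SE 0.22, unadjusted p = 0.0171, adjusted p = 0.596). Kcnab1, a potassium channel β subunit, had 7.27, 6.79 and 8.7 CPM in Ctrl and 11.3, 7.62 and 13.5 in cKO, with overlap (0.51, SE 0.22, adjusted p = 0.748). Rprm was the lowest of the list and the most abundant (-0.21, adjusted p = 0.857, and -0.05 without Ctrl replicate 2). In Ctrl, Rprm, Sox5 and Tle4 of this list averaged 157, 79.9 and 64.5 TPM, against 5.79 for Ccn2. How much of the RNA of such abundant genes comes from subplate neurons, and how much from other cortical neurons, cannot be told in bulk samples. With the 3 subplate genes above, 12 of the 14 tested lay above 0, where 50.6% of all genes did, and 4 had an unadjusted p under 0.05, all higher in cKO, where 3.14% of all genes did. The median was 0.23. Without Ctrl replicate 2, 9 of the 14 lay above 0, 3 had an unadjusted p under 0.05 and the median was 0.19. In that fit 1646 of all 13570 genes had an unadjusted p under 0.05 in either direction, against 899 with all 6 libraries.

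**Figure D4:**
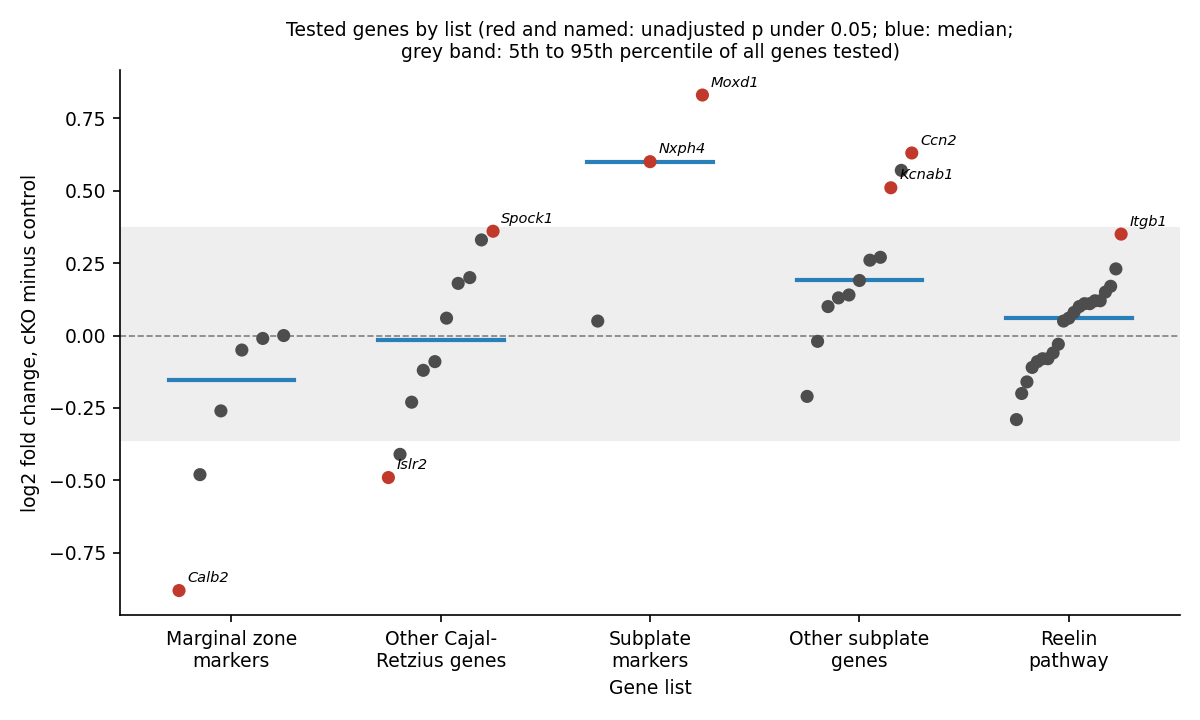
Log2 fold change (cKO relative to Ctrl) of each tested gene in the marker and pathway lists, 1 point per gene, with the median of each list. Subplate genes have medians of 0.60 (3 genes) and 0.19 (11 further genes), and Cajal-Retzius genes -0.15 (6 genes) and -0.01 (10 further genes).

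The Reelin pathway outside the ligand was measured by 21 genes, all tested. None passed the adjusted threshold, 12 lay above 0 and the median was 0.06. The balance turned without Ctrl replicate 2, with 7 of 21 above 0 and a median of -0.03, and with the length and GC correction, with 8 of 21 and -0.02. The receptors Vldlr and Lrp8 had log2 fold changes of 0.12 (adjusted p = 0.909) and 0.23 (adjusted p = 0.854), and of -0.03 and 0.05 without Ctrl replicate 2. Dab1 had 396, 322 and 449 CPM in Ctrl and 281, 374 and 362 CPM in cKO, with overlap (-0.20, adjusted p = 0.86, and -0.32 without Ctrl replicate 2). Itgb1, the integrin β1 chain, was the highest of the list, at 173, 138 and 178 against 220, 199 and 206 CPM (0.35, adjusted p = 0.607), the kinase Akt1 was the lowest (-0.29, adjusted p = 0.811), and N-cadherin (Cdh2) was the most abundant (0.06, adjusted p = 0.936). Without Ctrl replicate 2 these 3 had 0.25, -0.11 and -0.03. Of the p53 family besides Trp73, Trp53 was tested (-0.14, adjusted p = 0.898, and 0.00 without Ctrl replicate 2).

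Other cells of the dissected tissue also express some of these genes, and their markers were read beside them. For Reln, Ndnf and Calb2 the other source is cortical interneurons, 12 of whose listed genes were tested, with none past the adjusted threshold. Their summed level was 584 to 685 CPM in Ctrl and 520 to 749 CPM in cKO, with Npy the highest (0.32, adjusted p = 0.796), Dlx1 the lowest (-0.30, adjusted p = 0.811) and Vip at no more than 3 counts. For Calb2, thalamic markers without Calb2 itself summed to 77.5 to 98.9 CPM in Ctrl and 83.5 to 92.9 in cKO, with the defining marker Gbx2 at no more than 3 counts. Slc17a6 made up most of the thalamic sum, at 68.9 to 87.1 CPM in Ctrl and 72.2 to 81.7 in cKO, so it too says little of the other markers. For Nr4a2, claustrum markers summed to 984 to 1260 CPM in Ctrl and 1016 to 1157 in cKO. Gng2 made up most of that sum, at 860 to 1132 CPM in Ctrl and 892 to 1033 in cKO, so the sum says little of the other markers. Of the 4 claustrum genes tested, 2 lay above 0. Their values ran from Ntng2 at -0.17 (adjusted p = 0.856) to Synpr at 0.49 (adjusted p = 0.768). The hippocampal list, for Reln and Trp73, summed to 41.6 to 120 CPM in Ctrl and 95.2 to 117 in cKO, and its lowest sum was in Ctrl replicate 2, where Zbtb20 was at 13.3 CPM against 50.1 to 76.6 in the others. The log2 fold change of Zbtb20 was 0.24, and -0.23 without Ctrl replicate 2.

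Trp73 is also expressed in multiciliated and choroid plexus cells. Of the multiciliated markers only Foxj1 was tested (0.32, adjusted p = 0.854), and choroid plexus markers summed to 0.411 to 1 CPM in Ctrl and 0.383 to 1.11 in cKO, with Ttr, Kl and Folr1 at no more than 3 counts. Meningeal fibroblast markers, of a tissue that touches the marginal zone, summed to 10.3 to 13.1 CPM in Ctrl and 13.7 to 15.4 in cKO without overlap, with Col1a2 at 0.42 (adjusted p = 0.763). Ccn2 is made by such fibroblasts too, and the part of the meningeal difference in the Ccn2 values was not tested. Among excitatory neuron markers Slc17a7, the vesicular glutamate transporter VGLUT1 that rises as these neurons mature, had 33, 30.7 and 34.1 CPM in Ctrl and 55.5, 55.1 and 51.6 in cKO (0.73, SE 0.10, adjusted p = 0.0722). It passed the adjusted threshold with the length and GC correction (adjusted p = 0.0174) and without Ctrl replicate 2 (adjusted p = 0.00564). Neurod2 was the lowest of that list (-0.21, adjusted p = 0.796). The part of this difference in the subplate values was not tested. Striatal markers, which bear on where the cortex was cut, summed to 69.2 to 105 CPM in Ctrl and 77.7 to 100 in cKO with 0 of 6 past the adjusted threshold, Drd1 being the highest (0.33, adjusted p = 0.796) and Drd2 the lowest (-0.66, adjusted p = 0.862, and -0.23 without Ctrl replicate 2). Ppp1r1b, the most abundant of them (0.31, adjusted p = 0.806), passed it without Ctrl replicate 2. Of the olfactory bulb markers only Eomes was tested (0.05, adjusted p = 0.947), and Th was at no more than 3 counts. Eomes (Tbr2) is also the paper's marker of cortical intermediate progenitors, so its value says little of olfactory bulb tissue.

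The genes whose pattern over the 6 libraries was most like that of Reln, by the root mean square difference of centred log2 values, were Nup214 (0.0382), Hivep1 (0.0472) and Castor2 (0.0497), where the median over all genes tested was 0.301. Those most like Trp73 were Bmf (0.0516), Eya1 (0.0535) and Gabarapl1 (0.0536), where the median was 0.276. These are descriptions over 6 libraries. Cplx3, which was not tested, was not compared.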

How the data were processed

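The 3 Ctrl and 3 cKO bulk mRNA libraries of cortex were sequenced on a DNBSEQ instrument by the authors. The submitters' processing notes name HISAT2 2.2.1, Bowtie2 2.4.5 and RSEM 1.3.1 and the builds GRCm38 and mm10, without roles. Annotation and strandedness are not given in the sources used here. The authors deposited 1 table with estimated counts per gene and library, not normalized between libraries, with TPM values and FPKM values beside them. TPM values deposited by the authors were used for levels and in 1 alternative, and the FPKM values of the authors for description only. The 6 columns of group means by the authors were not used. Groups were taken from the labels. The labels do not say that each library is a separate embryo, so p-values measure the spread between these libraries.

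Estimated counts were rounded, filtered with filterByExpr, scaled by TMM and tested with edgeR 4.0.16 (quasi-likelihood, Benjamini-Hochberg) in R 4.3.3, without a replicate block. CPM values use the TMM-scaled total. Exact permutation tests were two-sided. The common biological coefficient of variation was 0.147, and floors of 3 counts cover counting error only. Alternatives were DESeq2 1.42.0, limma 3.58.1 on log2(TPM + 1), RLE scaling, other count filters, a length and GC correction (mgcv 1.9.3), a replicate block and leaving out each library. Coordinates are GENCODE M21 on GRCm38, and promoters are RefSeq on GRCm38.p6. The 10 genes and all lists were chosen with earlier results of these data known. Named were all 10 genes, fixed genes of the Cajal-Retzius, subplate and Reelin lists, for each list the genes called and those with the largest and smallest fold change and the highest mean TPM, and for Reln and Trp73 the 3 most alike genes.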

Additional observations from a re-analysis of the deposited data

How the results depend on the processing

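None of the 9 genes tested passed an adjusted p of 0.05, and this also held under RLE scaling, both other count filters, the replicate block and limma, and under DESeq2 for the 7 to which it gave an adjusted p (not Lhx1 or Moxd1). With the length and GC correction 1 passed (Nxph4), and so did 1 with that correction and the replicate block together, while 152 and 162 of all genes did, against 10. Leaving out 1 library gave 0 to 1 of the 9 and 8 to 122 of all genes, with 1 and 122 without Ctrl replicate 2 and 19 without Ctrl replicate 3. DESeq2 called 99 genes, and at an unadjusted p under 0.05 there were 3 of the 9 and 899 of all genes. The cause of these shifts was not tested. The 10 genes called were shared by all full fits, and 8 of them by the fits without Ctrl replicate 1 or any 1 cKO library.

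Of 123 alternative fold changes of the 9 genes that came with an adjusted p, 101 kept their direction and side of the threshold, 19 changed sign and 3 (all Nxph4) became significant. Each sign change was of a value near 0. With limma on TPM, which moved the median of all genes to 0.14, Reln had 0.1197, Lhx1 0.0326 and Ndnf 0.1609. Lhx1 had 0.0141 with the length and GC correction, and Ndnf 0.0131 with the replicate block. With 1 library left out, Reln ranged from -0.2279 to 0.0776, Lhx1 from -0.3888 to 0.3069, Ndnf from -0.1874 to 0.1092 and Nr4a2 from -0.1742 to 0.2711. Over the same fits with 1 library left out, the marginal zone median ranged from -0.3640 (without cKO replicate 3) to -0.0594, and the subplate median from 0.5048 to 0.6532. With limma on TPM these medians were -0.0510 and 0.5026. The subplate median was 0.7245 with the replicate block and the length and GC correction together. Lhx1 was not tested under the filter of CPM above 1.

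Same-numbered libraries correlated at 0.0884, 0.0615 and 0.23 in their deviations from the group means, so the numbers were not taken to pair them. Each library correlated best with its own number, a hint from the data and not the design. The replicate block gave 11 genes called against 10, with 0 of the 9. Depth limited Cplx3, Lhx1 and Moxd1, whose counts per library were at most 3, 19 and 30.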
